A study of Mus musculus with 2 samples.

Results

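The genes described are the 10 hypoxia factor and oxygen sensor genes of the mouse genome, taken by name from the GENCODE M21 basic annotation (mm10). They are 10 of 21911 protein-coding genes. Hif1a, Epas1 and Hif3a encode the oxygen-regulated alpha subunits of the hypoxia-inducible factors. Arnt and Arnt2 encode their partner subunits, Egln1, Egln2 and Egln3 encode prolyl hydroxylases, Hif1an encodes an asparaginyl hydroxylase, and Vegfa is a target gene. Their open chromatin was described in whole adrenal glands by DNase-seq, in which the enzyme DNase I cuts accessible DNA in nuclei and the released fragments are sequenced.

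The mice were male B6CASTF1/J, a first-generation cross between C57BL/6J and CAST/EiJ, 8 to 10 months old. The series has 1 group of 2 replicates, each a pool of 6 adrenal gland biosamples, and no treated or control group. The pools share a donor identifier and how many animals were used is not stated, so the spread between the pools may be technical. No test between conditions was possible, and all values are descriptions of these pools. Whole glands were used, and an open site in fewer cells cannot be told apart from a less open site in more cells.

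In well oxygenated cells, the prolyl hydroxylases use oxygen to modify the alpha subunits, which the von Hippel-Lindau protein then marks for destruction. The asparaginyl hydroxylase blocks the contact of the remaining alpha subunits with coactivators. When oxygen is scarce, the alpha subunits accumulate, pair with ARNT and bind hypoxia response elements, whose core is ACGTG or GCGTG. The adrenal gland is densely supplied with capillaries, to which VEGF-A from endocrine cells is known to contribute, and Epas1 is known for its activity in chromaffin cells of the medulla and in endothelium.

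The authors' peak lists held 117371 peaks in replicate 1 and 146307 in replicate 2, with 272595 and 319381 footprints, short stretches inside open chromatin that are protected from cutting. Each peak carries the authors' signal, whose scaling the sources used here do not state. Its median over all peaks was 0.699 in replicate 1 and 0.727 in replicate 2. Merging overlapping peaks gave 96584 regions that held a peak of each pool, called shared regions here. The labelled tissue was checked by promoter peaks in both pools, which were present at 6 of 6 cortex markers and 5 of 5 chromaffin markers. They were present at 3 of 5 endothelial markers and at 0 of 6 markers of other organs. Of all protein-coding genes 61.9% had such peaks, so the endothelial share (60%) was no higher than that of all genes.

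All 10 genes had a peak within 1 kb of an annotated transcription start site (TSS) in each pool, against 61.9% of all protein-coding genes with such a peak in both pools. For each gene the strongest promoter peak was taken. The median of these signals over the 10 genes was 3.67 in replicate 1 and 5.07 in replicate 2, against 2.94 and 3.81 over all genes with a promoter peak. Of the 10 genes, 5 in replicate 1 and 6 in replicate 2 lay above that median, as did 31.4% and 32.6% of all protein-coding genes when those without a peak were included. On a percentile scale over all protein-coding genes the median of the 10 was 73.6 in replicate 1 and 74.9 in replicate 2. The 10 genes therefore ranged widely around the middle of the open promoters, with Hif1a at the top and Arnt2 at the bottom in both pools.

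**Figure D1:**
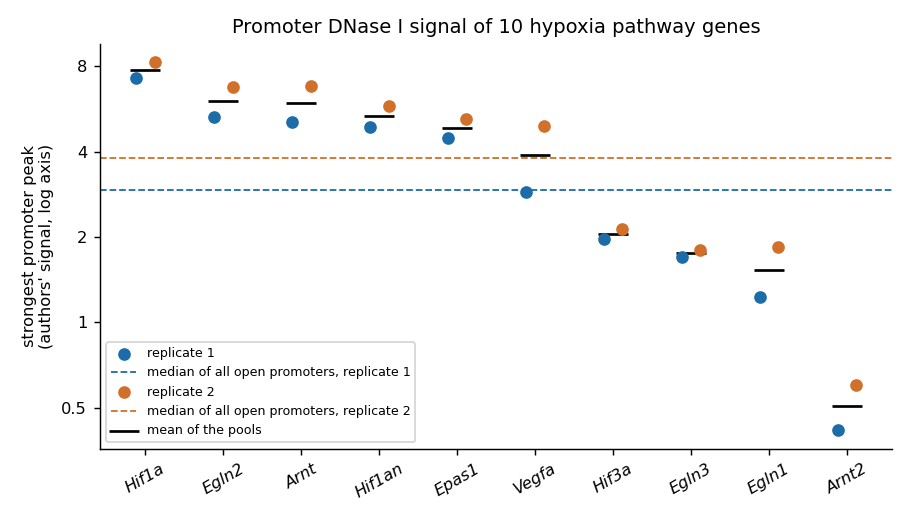
Strongest promoter peak of each of the 10 genes (authors' signal, log axis) in replicate 1 (blue) and replicate 2 (orange), with the mean of the 2 pools as a black bar; dashed lines are the medians of all genes with a promoter peak, 2.94 and 3.81. Hif1a to Epas1 lie above these lines in both pools, Vegfa lies above the line of replicate 2 and just below that of replicate 1, and Hif3a, Egln3, Egln1 and Arnt2 lie below.

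Hif1a encodes HIF-1α, the alpha subunit present in most cell types. The gene lies on the plus strand of chromosome 12 at 73901375 to 73947530 (positions are on mm10 throughout), with annotated TSSs at 73901375 and 73907904. Mouse Hif1a is known to have alternative first exons. The promoter peak at the downstream TSS had signals of 7.25 (replicate 1) and 8.27 (replicate 2) (7.76 ± 0.716, SD, n = 2), higher than 91.0% and 89.0% of genes. This peak covered 73907701 to 73907940 in both pools and its midpoint lay 83 bp before that TSS. The region at the upstream TSS, 73901281 to 73901480, had only 0.646 and 1.02, so the downstream start carried most of the promoter signal in both pools.

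The Hif1a sequence is shown because this was the strongest promoter of the 10 and holds hypoxia response element cores. It is the RefSeq promoter window on GRCm38.p6, 250 bp before to 50 bp after the RefSeq start, chr12:73907617-73907916, plus strand, 5′ to 3′. Capitals mark each ACGTG or GCGTG core on either strand, and CACGTG holds overlapping cores on opposite strands.
Hif1a promoter: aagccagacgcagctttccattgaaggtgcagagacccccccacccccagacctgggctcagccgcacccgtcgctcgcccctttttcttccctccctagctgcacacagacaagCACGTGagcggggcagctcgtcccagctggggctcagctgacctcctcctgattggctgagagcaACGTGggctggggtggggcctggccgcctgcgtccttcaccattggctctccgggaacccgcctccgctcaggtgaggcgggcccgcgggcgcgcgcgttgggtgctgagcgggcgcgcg
The window holds 3 cores, 25 CpG dinucleotides and 69.3% G or C. The Hif1a promoter peak held 7 footprints in each pool. The 3 cores touched footprints in both pools, but none lay with all its bases inside a footprint of each pool (2 did in replicate 1 and 1 did in replicate 2). Here, as below, a match of letters is a description and not a binding site. All letters are those of the reference genome, and variants between the parent strains of the mice were not examined.

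Epas1 encodes HIF-2α and lies on the plus strand of chromosome 17 at 86753700 to 86833410 with 1 annotated TSS. Its promoter peak had signals of 4.46 (replicate 1) and 5.23 (replicate 2) (4.84 ± 0.544, SD, n = 2), higher than 79.1% and 75.7% of genes. The peak, 86753341 to 86753760 in replicate 1 and to 86753800 in replicate 2, held 9 footprints in each pool. The authors' table of false discovery rates (FDR, adjusted p-values) lists stretches where cutting passed 0.05. It covered 93.9% of the 2001 bp around the Epas1 TSS in replicate 1 and 83.9% in replicate 2. A core at 86753562 to 86753566 lay inside a footprint of both pools, 23 bp wide in replicate 1 and 11 bp wide in replicate 2.

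Hif3a encodes HIF-3α, whose alternative transcripts include inhibitors of the other factors. It lies on the minus strand of chromosome 7 at 17031507 to 17062427, with TSSs at 17062427 and 17056679. Its strongest promoter peak had signals of 1.97 (replicate 1) and 2.14 (replicate 2) (2.06 ± 0.122, SD, n = 2), higher than 59.6% and 55.3% of genes. This peak, 17056041 to 17056300 in replicate 1 and 17056061 to 17056280 in replicate 2, lay inside the gene, with its midpoint 508 bp past the inner TSS in both pools. Within 1 kb of the outer TSS, the start of the gene record, there was no peak in replicate 1 and a peak of 0.544 in replicate 2. Hif3a was thus the weakest of the alpha subunit genes at its promoters, and its strongest promoter peak lay nearer the inner start than the outer one.

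Arnt encodes the common partner subunit, also called HIF-1β, which the aryl hydrocarbon receptor uses as well. Its gene, on the plus strand of chromosome 3 at 95434388 to 95497240, had promoter signals of 5.09 (replicate 1) and 6.81 (replicate 2) (5.95 ± 1.22, SD, n = 2), higher than 82.4% and 83.6% of genes. The peak ended at 95434460 in both pools and held 2 and 4 footprints.

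Arnt2, a paralog of Arnt best known from neurons, was the least open of the 10. The gene lies on the minus strand of chromosome 7 at 84246278 to 84410176. Its strongest promoter peaks had signals of 0.416 in replicate 1 and 0.600 in replicate 2 (0.508 ± 0.130, SD, n = 2), higher than 40.1% and 40.4% of genes. The peak of replicate 1, 84410361 to 84410402, is 42 bp wide and does not overlap that of replicate 2, 84409901 to 84410200. Arnt2 was the 1 gene of the 10 with no promoter region shared by the pools, whereas 61.8% of all protein-coding genes had one. The lowest FDR in its promoters was 0.0218 in replicate 1 and 0.000203 in replicate 2, and listed stretches covered 1.95% and 14.5% of the promoter bases.

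The 3 prolyl hydroxylase genes differed from each other at their promoters. Egln2, which encodes PHD1, lies on the minus strand of chromosome 7 at 27158658 to 27166802 and had 5.28 in replicate 1 and 6.76 in replicate 2 (6.02 ± 1.05, SD, n = 2). Egln3, which encodes PHD3, is itself induced by hypoxia and lies on the minus strand of chromosome 12 at 54178981 to 54203860. Its promoter had 1.70 and 1.80 (1.75 ± 0.0685, SD, n = 2). Egln1 encodes PHD2, the main oxygen sensor of most cells, and lies on the minus strand of chromosome 8 at 124908587 to 124949324. Its promoter had 1.23 and 1.84 (1.53 ± 0.433, SD, n = 2). The lowest Egln2 value was above the highest value of either other gene, while Egln3 and Egln1 changed places between the pools. Egln2 stood higher than 83.4% and 83.3% of genes, Egln3 higher than 56.8% and 52.5%, and Egln1 higher than 51.5% and 52.8%.

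The Egln2 promoter held 3 shared regions, and the strongest, 27166781 to 27167100, had 5 footprints in replicate 1 and 10 in replicate 2. In this region a core at 27166832 to 27166836 lay inside footprints of 20 and 29 bp. The Egln3 peak, 54203801 to 54204020 in replicate 1, had 4 footprints in each pool. The Egln1 peak, 124949361 to 124949860 in replicate 1 and 124949341 to 124949640 in replicate 2, had 6 and 8 footprints.

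The Egln1 sequence is shown because it was the most GC-rich promoter of the 10. It is the RefSeq promoter window on GRCm38.p6, chr8:124949205-124949504, minus strand, 5′ to 3′, with ACGTG and GCGTG cores in capitals.
Egln1 promoter: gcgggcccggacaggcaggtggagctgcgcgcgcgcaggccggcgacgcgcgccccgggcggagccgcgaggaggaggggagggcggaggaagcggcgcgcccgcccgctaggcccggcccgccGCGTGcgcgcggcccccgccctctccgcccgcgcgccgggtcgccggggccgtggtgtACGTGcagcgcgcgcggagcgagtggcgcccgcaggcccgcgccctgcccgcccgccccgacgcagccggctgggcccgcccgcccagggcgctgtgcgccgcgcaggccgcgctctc
These 300 bases hold 2 cores, 60 CpG dinucleotides and 86% G or C. The shared region at this start, 124949341 to 124949860, held 1 core. That core lay inside no footprint of either pool and did not touch footprints in both pools. Within 500 bp of the TSS, Egln1 had 77.3% G or C, more than 99.7% of genes, and an observed over expected CpG ratio of 1.01, more than 98.3% of genes. By signal the same promoter was near the middle of all genes. Hif1a was high on both scales, with a CpG ratio of 0.875 that exceeded that of 87.9% of genes. Hif3a had the lowest ratio of the 10, 0.564, and 9 of the 10 lay above the median of all genes, 0.589, as do 50% of genes.

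Hif1an encodes FIH, the asparaginyl hydroxylase that inhibits HIF-1α. It lies on the plus strand of chromosome 19 at 44562850 to 44576274. Its promoter peak, 44562681 to 44562900 in both pools, had signals of 4.90 (replicate 1) and 5.80 (replicate 2) (5.35 ± 0.641, SD, n = 2), higher than 81.5% and 78.9% of genes. It held 5 footprints in each pool, and its midpoint lay 59 bp before the TSS.

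Vegfa encodes vascular endothelial growth factor A and lies on the minus strand of chromosome 17 at 46016993 to 46032369 with 4 annotated TSSs. Its strongest promoter peak had signals of 2.88 (replicate 1) and 4.92 (replicate 2) (3.90 ± 1.44, SD, n = 2), higher than 68.0% and 74.1% of genes. This was the largest relative difference between the pools among the 10 promoters. The value of replicate 2 was 1.71 times that of replicate 1, where the median over all genes with peaks in both pools was 1.30 times, and 95.1% of these genes had a lower ratio. The Vegfa promoters held 4 shared regions. They lay 502 and 62 bp before the start of the gene and 368 and 1358 bp past it. The region 502 bp before it, 46032761 to 46032980, had 2.72 in replicate 1 and 4.03 in replicate 2.

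A well known hypoxia response element of Vegfa lies upstream of the gene, and its letters, TACGTGGG, were looked for after the values had been seen. A match lies on the minus strand at chr17:46033294-46033301, 929 bp before the start of the gene. It is shown with its flanks on GRCm38.p6, minus strand, 5′ to 3′, with the match in capitals, because it is the named target sequence of these factors at Vegfa.
Vegfa upstream match: tacacagtgcaTACGTGGGtttccacaggt
The match overlapped no footprint and no stretch listed in the FDR table in either pool. The nearest peak, the region 502 bp before the gene start, ended 314 bp away in both pools, and the nearest footprint was 311 bp away in replicate 1 and 387 bp away in replicate 2. In these glands the open part of the Vegfa promoter thus lay closer to the gene than these letters.

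In order of their mean promoter signal the genes were Hif1a, Egln2, Arnt, Hif1an, Epas1, Vegfa, Hif3a, Egln3, Egln1 and Arnt2. Between neighbours in this order, the values of the pools did not overlap for Hif1a over Egln2, Vegfa over Hif3a, Hif3a over Egln3 and Egln1 over Arnt2. They overlapped for the other 5 neighbouring pairs, and Egln2 and Arnt, like Egln3 and Egln1, stood in opposite orders in the 2 pools. Arnt over Hif1an, Hif1an over Epas1 and Epas1 over Vegfa kept the same order within each pool. The strongest promoter peaks of the pools overlapped for 9 genes, all but Arnt2. The share of all genes for which they overlapped is not given here.

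Within 50 kb of the 10 gene bodies lay 118 shared regions, none of them counted for 2 genes. Of these, 20 lay at a promoter of the gene itself, 22 at promoters of other genes, 30 in introns, 4 in exons, 25 upstream and 17 downstream. The 76 regions over 1 kb from every annotated TSS are called distal. Each of the 10 genes had at least 1 distal region, as did 86.4% of all protein-coding genes. A region near a gene is not thereby assigned to it.

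**Figure D2:**
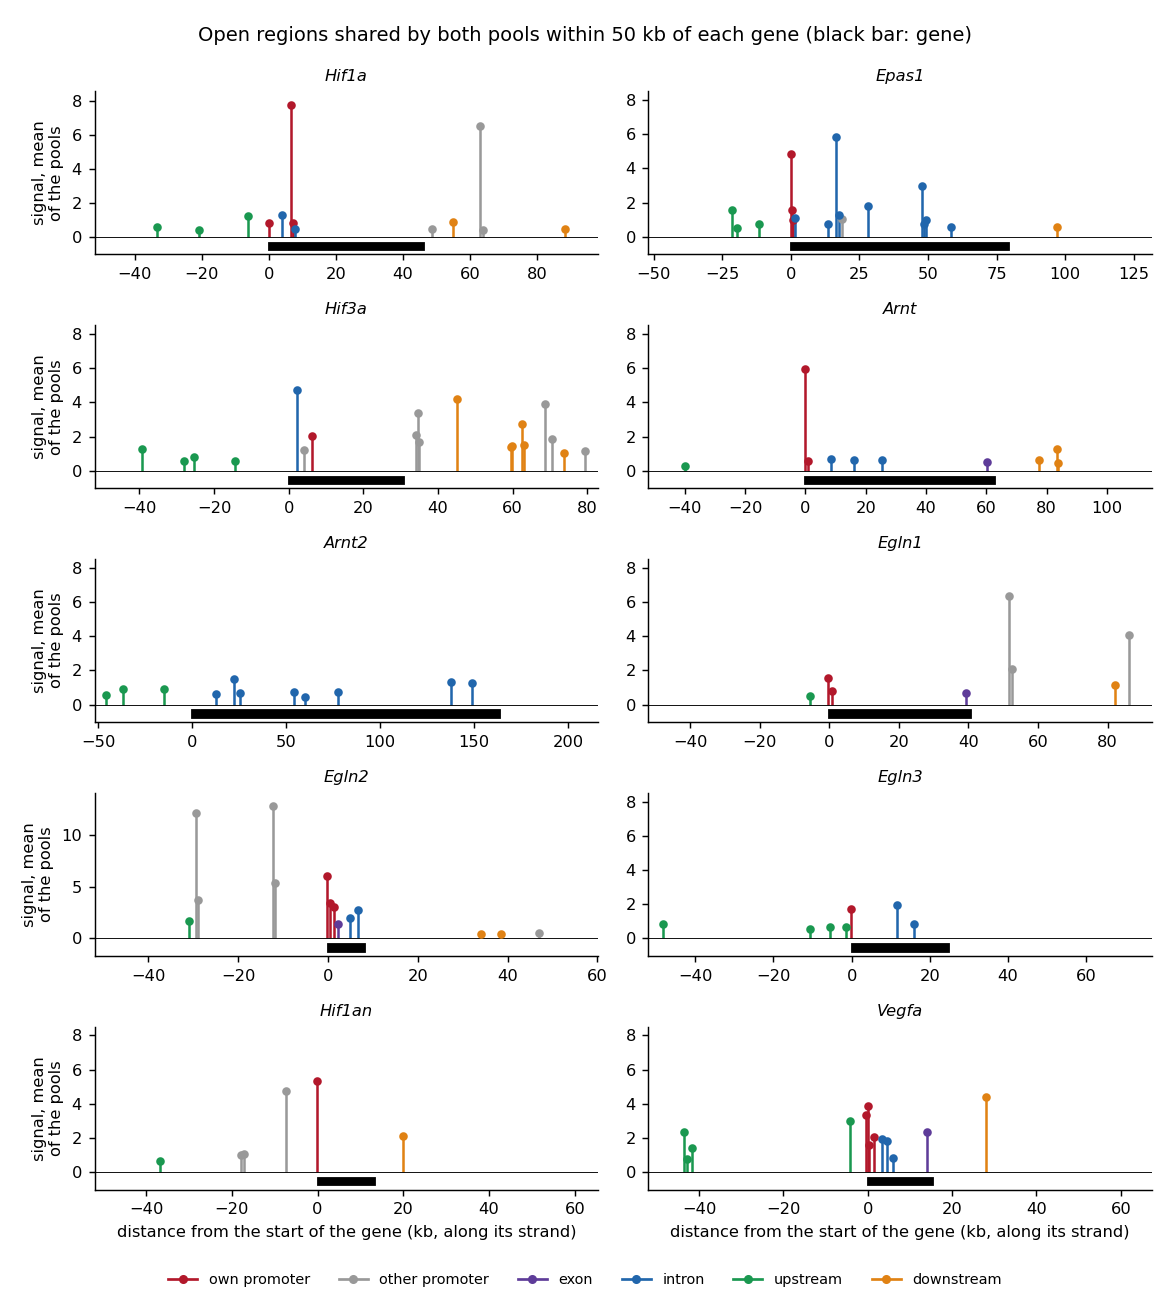
Shared regions within 50 kb of each gene, by distance from the start of the gene along its strand (x axis, kb) and mean signal of the 2 pools (y axis); the black bar is the gene, colours give the place of the region, and the Egln2 panel has a taller y axis. The Epas1 panel is crowded with intron regions, Arnt2 has no promoter region, and the tallest regions of the Egln2 panel are promoters of other genes.

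Because long genes have long windows, counts were set per 100 kb. The median over the 10 genes was 7.52 shared regions per 100 kb, against 6.20 over all protein-coding genes, and 5 of the 10 lay above the median of all genes, as do 50% of genes. For distal regions the median was 4.86 per 100 kb against 3.49, with 8 of the 10 above the median of all genes, again set beside 50%. Hif3a had 19 shared regions (14.5 per 100 kb, higher than 93.0% of genes), of which 11 were distal (8.40 per 100 kb, higher than 91.6%). Egln2 had 14 shared regions (12.9 per 100 kb), of which 6 were distal (5.55 per 100 kb). Arnt2, the longest gene of the 10, had 11, all of them distal (4.17 per 100 kb). That density was higher than 34.1% of genes for shared regions and 58.9% for distal regions. Counts of distal regions in 1 pool alone were over 1.5 times those shared by the pools for several genes. With replicate 1 left out there were 22 for Arnt2 against 11 shared, 12 for Egln1 against 3, 10 for Egln2 against 6, 5 for Hif1an against 2 and 14 for Vegfa against 9. With replicate 2 left out there were 11 for Hif1a against 7. The other genes, Epas1, Hif3a, Arnt and Egln3, stayed within 1.5 times with either pool left out.

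**Figure D3:**
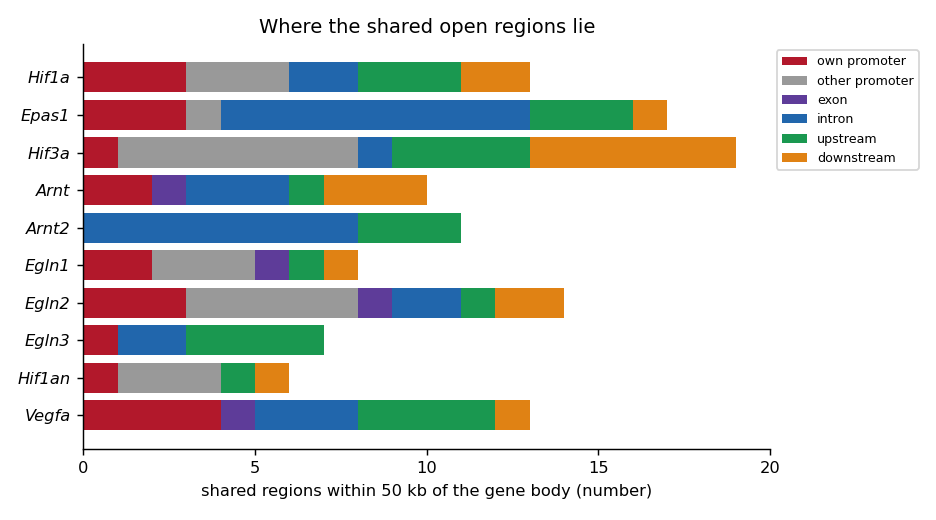
Number of shared regions within 50 kb of each gene body (x axis) by place, for the 10 genes (rows). Epas1 has 9 intron regions and Arnt2 has 8, Arnt2 has no promoter region, and Hif3a has 7 regions at promoters of other genes.

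Epas1 had 13 distal regions, and by distal density it exceeded 86.0% of genes, less than Hif3a (91.6%) and Vegfa (89.2%). The Epas1 count was the highest of the 10 among shared regions, but Arnt2 had more with replicate 1 left out (22 against 16 for Epas1). With the shorter peak lists Hif3a and Arnt2 had 8 each and Epas1 had 7, and with the strongest 50% of peaks Epas1 and Hif3a had 9 each. Its strongest was in an intron 16.3 kb past the start, 86769821 to 86770120, with 6.19 in replicate 1 and 5.52 in replicate 2 (5.86 ± 0.471, SD, n = 2). This was the strongest distal region near any of the 10 genes and ranked above 95.8% of all shared regions. Its mean was above that of the Epas1 promoter, and it held 5 footprints in replicate 1 and 4 in replicate 2. A further intron region 47.7 kb past the start had 2.70 and 3.28.

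Hif3a showed the same order of intron over promoter. So did Arnt2, with 1.28 (replicate 1) and 1.68 (replicate 2) in an intron against 0.416 and 0.600 at promoters. By mean alone, the strongest distal region also exceeded the promoter at Egln3 (1.95 against 1.75) and Vegfa (4.40 against 3.90). At Hif1a, Arnt, Egln1, Egln2 and Hif1an it was below the promoter. For Hif3a, an intron region 2.2 kb past the start of the gene record, 17060101 to 17060320, had 4.13 in replicate 1 and 5.33 in replicate 2, above both values of its promoter peak. It lies between the outer and the inner TSS. Downstream of Hif3a, a region 45.2 kb from the start, inside the neighbouring gene Ppp5c, had 3.54 and 4.80. Between the intron region and the inner TSS, 4.0 kb past the start at 17058141 to 17058700, lies a region at the promoter of 4833404L02Rik with 1.60 in replicate 1 and 0.81 in replicate 2. It was the 1 region of the 118 whose ratio between pools differed over 2-fold from the median ratio, as did 1.28% of all shared regions.

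Vegfa had 9 distal regions and exceeded 89.2% of genes in their density. The strongest lay 28 kb past the start, beyond the end of the gene, at 46004181 to 46004500, with 4.15 in replicate 1 and 4.64 in replicate 2. It held 4 hypoxia response element cores, of which 2 lay inside footprints in replicate 2 and none in replicate 1. Upstream, a region 4.2 kb before the start had 2.72 and 3.28. Regions 41.7 to 43.5 kb upstream, inside AC110562.2, formed a group of 3, the strongest with 2.04 and 2.63.

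The hydroxylase genes had weaker distal regions. The strongest for Egln2 was an intron region 6.8 kb past the start with 2.65 in replicate 1 and 2.84 in replicate 2. For Hif1an it lay 20 kb past the start, beyond the end of the gene, with 1.69 and 2.57. Egln3 had an intron region at 11.7 kb with 1.63 and 2.26, close to its promoter in strength. The strongest near Egln1 lay 82 kb past the start, inside Gnpat, with 1.01 and 1.27.

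The partner subunits and Hif1a had distal regions that stayed under 2. Arnt2 reached 1.28 in replicate 1 and 1.68 in replicate 2 in an intron 22.2 kb past the start. Arnt reached 0.825 and 1.76 at 83.3 kb, downstream of the gene, and Hif1a reached 0.773 and 1.80 in an intron at 3.8 kb. In both cases the pools differed by more than the median ratio. Over the 10 genes, the mean signal of the strongest distal region ran from 1.14 to 5.86.

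Some of the strongest regions in the windows belonged to promoters of neighbours. In the Egln2 window the promoter of Rab4b, 12.2 kb before the start of Egln2, had 11.5 in replicate 1 and 14.1 in replicate 2, above the Egln2 promoter itself. The promoter of Snrpa and BC024978 had 11.2 and 13.1. Snapc1 in the Hif1a window had 5.40 and 7.63, and Exoc8 and Sprtn in the Egln1 window had 5.57 and 7.17, far above the Egln1 promoter. Arnt, Arnt2, Egln3 and Vegfa had no shared region at a promoter of another gene in their windows.

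The pools differed in how many peaks they added on their own. In the 10 windows, replicate 1 had 141 peaks and 398 footprints and replicate 2 had 173 peaks and 457 footprints. Of these, 22 peaks of replicate 1 and 51 of replicate 2 overlapped none of the other pool. Egln1 had 0 and 11 such peaks and Arnt2 had 3 and 11. The share of such peaks over the whole genome is not given here, so these counts are not read as a trait of the 10 windows. Replicate 2 had the longer peak list genome-wide, 146307 peaks against 117371. The median log2 ratio of replicate 2 over replicate 1 in signal was 0.31 over the 118 regions, against 0.35 over all shared regions. The signal was lower in replicate 2 in 20 of the 118 regions (16.6% of all shared regions), among them the Epas1 intron region.

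**Figure D4:**
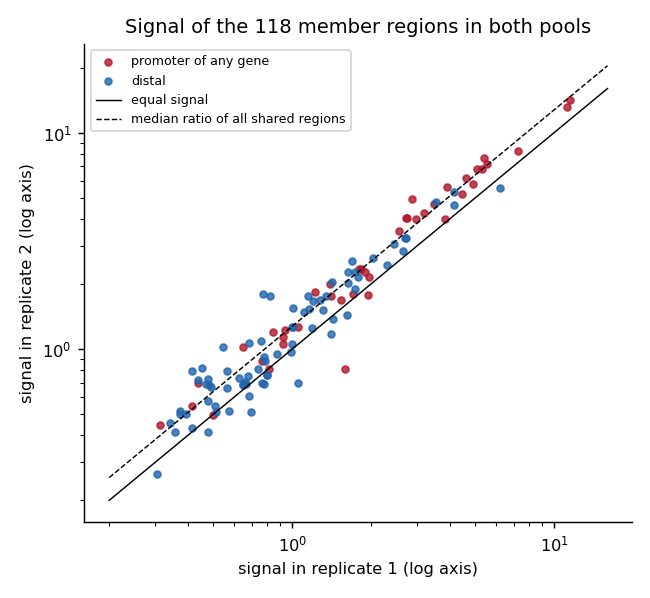
Signal of the 118 shared regions in replicate 1 (x axis) and replicate 2 (y axis), both log axes, split into regions at a promoter of any gene (red) and distal regions (blue). Most points lie above the line of equal signal and near the dashed median ratio of all shared regions; the region at the promoter of 4833404L02Rik, at 1.60 and 0.81, lies farthest below.

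The 118 regions had a median signal of 1.25, against 0.925 over all shared regions, and the distal ones had 0.875 against 0.818 over all distal shared regions. Footprints of both pools were present in 94 of the 118 regions (79.7%), close to the 78.6% of all shared regions. The 1 region without a footprint in either pool lay 791 bp past the Epas1 start.

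The hypoxia response element core, ACGTG or GCGTG on either strand, was searched within 75 bp of the midpoint of each region. It was present in 36 of the 118 regions (30.5%), against 23.7% of all shared regions. It was present in 18 of 76 distal regions (23.7%), against 18.3% of all distal shared regions, and in 18 of 42 promoter regions (42.9%), against 39.2% of all promoter regions. The 20 regions at promoters of the 10 genes held it in 8 cases, at Hif1a, Epas1, Arnt, Egln1, Egln2 and Vegfa. These shares were near the background. At Egln1 the region counted here lay 893 bp past the start and was not the one with the strongest promoter peak.

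Taking the whole of each region, 10 regions had a core with all 5 bases inside a footprint of both pools. Of these, 3 were distal (3.95%, against 2.06% of all distal shared regions) and 7 were at promoters (16.7%, against 12% of all promoter regions). The promoter ones were those of Epas1 and Egln2 and 5 at the neighbours Ccdc8, Gnpat, Exoc8 and Sprtn, Rab4b, and Snrpa. The distal ones lay near Arnt2, Hif1an and Vegfa.

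The sequences of these 3 distal stretches are shown because they are the sites outside promoters where the core and the protection from cutting coincide in both pools. They are read from GRCm38.p6 along the strand of the gene, 5′ to 3′, with the core in capitals: for Arnt2 chr7:84333056-84333180 (minus), for Hif1an chr19:44582761-44582865 (plus) and for Vegfa chr17:46028797-46028921 (minus). The Vegfa core is printed as the complement, CACGT, and the CACGTG of Arnt2 holds overlapping cores on opposite strands.
Arnt2 intron, 77.3 kb past the start: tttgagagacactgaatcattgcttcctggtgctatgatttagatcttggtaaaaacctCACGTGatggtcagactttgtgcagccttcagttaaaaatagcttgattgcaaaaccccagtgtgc
Hif1an, 20 kb past the start: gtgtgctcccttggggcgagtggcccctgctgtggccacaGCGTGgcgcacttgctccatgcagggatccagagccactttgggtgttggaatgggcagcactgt
Vegfa intron, 3.5 kb past the start: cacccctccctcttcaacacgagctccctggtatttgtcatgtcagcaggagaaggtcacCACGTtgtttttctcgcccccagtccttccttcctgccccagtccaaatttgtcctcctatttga
The Arnt2 core lay in a footprint of 11 bp, 84333114 to 84333124, with the same ends in both pools. CACGTG is also the E-box that other basic helix-loop-helix factors bind. The region around it was weak, with 0.68 in replicate 1 and 0.75 in replicate 2. The Hif1an core lay in footprints of 21 bp in replicate 1 and 25 bp in replicate 2, in the strongest distal region of that gene. The Vegfa core lay in footprints of 9 and 11 bp in an intron region with 1.79 and 2.15.

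Letters of other factors were searched in the same stretches on both strands. CAAGGTCA, bound by the steroidogenic factor NR5A1, was present in 8 of 76 distal regions (10.5%), against 6.38% of all distal shared regions. These regions lay near Hif1a, Epas1, Hif3a, Arnt2, Hif1an and Vegfa, and 0 of the 42 promoter regions held it, against 1.68% of all promoter regions. The AP-1 letters TGANTCA were present in 20 distal regions (26.3%, against 23.4%) and the CTCF consensus in 10 (13.2%, against 9.1%). AAAGGTCA, bound by NR4A factors, was present in 4 (5.26%, against 2.64%) and shares the letters AGGTCA with the NR5A1 match. Of the 76 distal regions, 0 held the cyclic AMP response element TGACGTCA (0.532% of all distal regions), the glucocorticoid receptor consensus (1.07%), the NFI consensus (0.108%) or the ETS letters ACCGGAAGT (0.0769%).

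The wider pathway was described by lists of genes around the 10. Promoter peaks in both pools were found at 50 of 56 listed genes, against 61.9% of all protein-coding genes. All 11 genes for HIF degradation and coactivators had one, with medians of 3.25 (replicate 1) and 5.05 (replicate 2), against 1.09 and 1.51 over all genes, those without a peak counted as 0. The strongest were Rbx1, a subunit of the ubiquitin ligase, with 8.23 and 9.86, Eloc, an elongin that binds the von Hippel-Lindau protein, with 6.12 and 7.63, and Cited2, which competes with HIF-1α for coactivators, with 4.99 and 8.03.

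Of 25 hypoxia-responsive genes, 22 were open at the promoter in both pools (88%), and their median signal was 4.66 in replicate 1 and 5.55 in replicate 2. The strongest was Ddit4, an inhibitor of mTORC1 signalling, with 13.8 and 15.7. Next were Bnip3l, a mitophagy receptor, with 12.8 and 15.5, and Pfkfb4, a regulator of glycolysis, with 10.9 and 13.3. Car9 and Cox4i2 lacked a promoter peak in both pools, and Ndufa4l2 had 0 and 0.671. Car9 encodes a carbonic anhydrase and the other two encode subunits linked to the respiratory chain.

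The Vegfa promoter stood above the median of the other genes of its family. Of these 9 ligand and receptor genes, 8 were open at the promoter in both pools (88.9%), with a median signal of 0.884 in replicate 1 and 1.54 in replicate 2. The strongest were the coreceptor gene Nrp2 with 3.54 and 4.02, the ligand gene Vegfd with 1.82 and 1.87 and the coreceptor gene Nrp1 with 1.48 and 1.54. The ligand gene Vegfb had no peak in replicate 1 and 1.68 in replicate 2.

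Among 11 other genes of the bHLH-PAS family, to which the HIF subunits belong, 9 were open at the promoter in both pools (81.8%), with a median signal of 0.654 and 1.19. The circadian gene Arntl, a partner of Clock, had 10.6 in replicate 1 and 11.6 in replicate 2, above Hif1a and Arnt. Clock had 2.23 and 3.33, and Ahr, the aryl hydrocarbon receptor gene, had 1.56 and 1.79. Npas1 and Sim2 lacked a promoter peak in both pools.

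**Figure D5:**
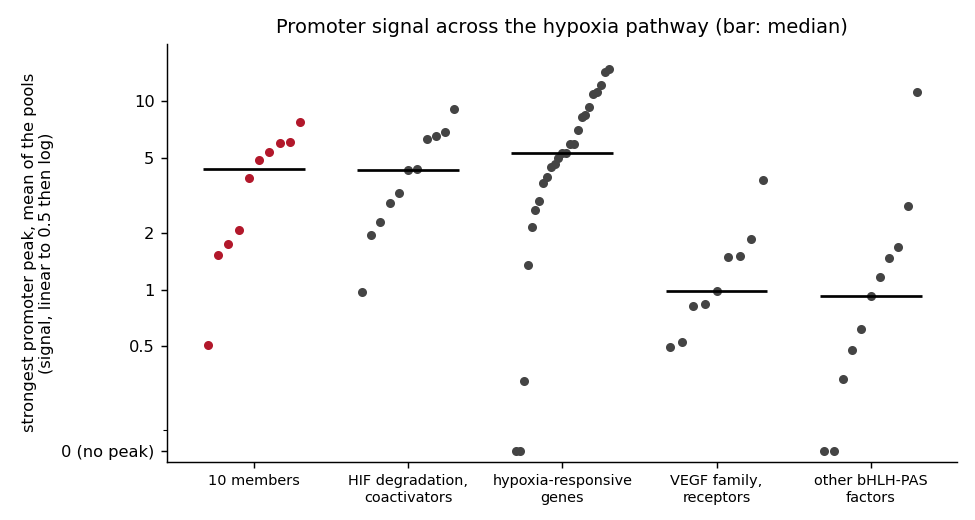
Mean promoter signal of the 2 pools (y axis, linear to 0.5 and then log) for the 10 genes (red) and 4 lists of related genes (grey), 1 point a gene, with the median of each list as a bar. The 10 genes, the degradation and coactivator list and the hypoxia-responsive list have their medians well above those of the VEGF family and the other bHLH-PAS factors.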

How the data were processed

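Peaks, footprints and false discovery rates (FDR) were analysed as deposited for the 2 pools. Per the labels, DNase-seq reads were processed on mm10. The labels name no aligner, peak caller or footprint caller (not given in the sources used here). The authors deposited 2 peak lists for each pool with a signal of 0 or more, whose scaling is not stated, so depth is unknown and no interval was given. The longer list was used. The authors' deposited table holds FDR values, p-values adjusted for multiple tests, under 0.05 only. The value of 0.01 in the deposited footprint lists was constant, so footprints were not ranked.

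Peaks of the pools that overlapped by at least 1 bp were merged into shared regions. Promoters reached 1 kb from each TSS of the GENCODE M21 basic set (77161 TSSs, 21 chromosomes), and windows reached 50 kb beyond the gene body. A percentile is the share of the 21911 protein-coding genes with a lower promoter signal in that pool. CpG ratios used 500 bp on either side of the TSS nearest the strongest promoter peak. Promoter sequences came from the RefSeq table (GRCm38.p6), which matched 9 of the 10 genes. All 10 genes were named, with the strongest promoter and distal region of each, regions with a core inside footprints of both pools, and in each list the 3 strongest genes and those without a peak in both pools. The genes, lists, motifs and alternatives were chosen with earlier results of these data known. With 1 group of 2 pools, no test was run. Python 3.11.15, numpy 2.4.6, pandas 2.3.3, pysam 0.24.0 and matplotlib 3.10.9 were used, and the steps were tested on simulated data.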

Additional observations from a re-analysis of the deposited data

How the results depend on the processing

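No paired analysis was possible because the series has 1 group and no result came from a test. The 10 genes with a promoter peak in both pools became 9 with the shorter peak lists or the 50% of peaks with the most signal (without Arnt2) and 9 with only the start of the gene record as TSS (without Hif3a). With that start the median promoter percentile was 64.7, against 74.2. With windows of 100 kb the 118 shared regions became 180 and the 94 with footprints of both pools became 147. The median density of 7.52 per 100 kb was 4.26 with the shorter lists, 4.34 with the strongest 50% of peaks, 8.95 with windows of 25 kb, 6.81 with windows of 100 kb, and 9.78 to 10.7 with 1 pool left out. The median of 7.5 distal regions a gene was 4, 3, 5, 11 and 10 to 11 under the same settings. The share of regions with a core, 30.5%, was 35.4% with the shorter lists and with the strongest 50% of peaks, 32.2% with windows of 100 kb, 15.3% for ACGTG alone, 41.5% over whole regions, and 27.0% to 28.9% with 1 pool left out. The background of 23.7% over all shared regions belongs to the main setting. None is given for the alternatives, so their shares cannot be set against it. The smaller lists and windows hold fewer regions by construction, and 1 pool alone needs no partner peak. Of single genes, 25 of 70 distal counts under an alternative differed over 1.5 times from the main count. The promoter signal of Arnt2 moved by more than the SD of the pools with the shorter lists. A signal with 1 pool left out is the value of the other pool and says nothing more about stability. The unknown depth of the libraries limits low peaks such as those of Arnt2.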
